A study of Drosophila melanogaster with 6 samples.

Results

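The mitochondrial respiratory chain and the ATP synthase are built from complexes I to V, and most of their subunits are encoded in the nucleus. The genes described here were chosen by symbol: those starting with ND-, Sdh, UQCR-, COX followed by a digit, or ATPsyn, together with RFeSP and Cyt-c1. They number 75 of the 11981 genes that had a probe set of their own on the array. A probe set is a group of short oligonucleotides that reports 1 transcript or several, and the brightest was taken where a gene had more than 1. The symbols cover 53 subunits, 21 duplicates whose symbol adds an L to that of a subunit, and the assembly factor Sdhaf3. Cyt-c-p, ATPsynG, COX6B and ND-AGGG had no probe set annotated to them alone and were not analysed here, nor were the 13 subunits encoded in mitochondrial DNA. Other subunits are also absent, among them SdhA, ND-24, COX6A and COX6C, which were not measured under these symbols. Counts by complex therefore refer to the measured genes and not to whole complexes.

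Complex I oxidises NADH and complex II oxidises succinate, and both pass electrons through ubiquinone to complex III, then through cytochrome c to complex IV, which reduces oxygen. Complexes I, III and IV pump protons across the inner membrane, and complex V, the ATP synthase, lets them flow back to make ATP. In Drosophila many duplicates of nuclear genes for these subunits are expressed mainly in the testis.

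The study compared whole Drosophila melanogaster prepupae homozygous for the sox14L1 allele, in the w1118 strain background, with w1118 prepupae. Sox14 encodes an HMG-box transcription factor. Animals were raised at 25 °C and collected at 0 h, as the puparium forms and metamorphosis starts. Each of the 6 arrays was hybridised with RNA of a pool of 10 prepupae, with 3 arrays per genotype. Whether separate cultures stood behind the samples of each genotype is not in the labels, and the p-values therefore cover only the variation among these arrays, which may be technical.

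Array medians lay between 6.996 and 7.075 on the log2 scale. Sox14 read 10.34, 10.67 and 10.73 in the mutant and 11.40, 11.60 and 11.72 in the control, and fell by 0.99 ± 0.13 (adjusted p = 0.00101, limma). Mutant array 1 differed from all the others in its control probe sets. Its mean signal for 18S ribosomal RNA was 12.18, against 7.56 to 7.94 on the other 5 arrays. Its actin 3′ minus 5′ difference was 1.77, against 0.54 to 0.88. The part of these differences in the results was not tested. Values without this array are given for some genes only, so a value printed alone may also differ without it.

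Most respiratory chain genes did not pass the test between genotypes, and most of those that did changed by less than 0.6 on the log2 scale, with COX7AL2 and ATPsynbetaL as the exceptions. Of the 75 genes, 12 were lower in the mutant (16.0%), where 13.4% of all genes were lower. A single gene was higher (1.33%), where 11.3% of all genes were higher. Without control array 2 the count of higher genes was 8 (10.7%), where 11.2% of all genes were higher. A call means an adjusted p under 0.05 in limma, and over all genes 24.7% were called in either direction. The share of lower calls lay near that of all genes. The median change, mutant minus control on the log2 scale, was -0.11 over the 75 genes and -0.03 over all genes. The sign was negative for 49 genes and positive for 26. Over all 11981 genes it was negative for 6531 and positive for 5450.

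The groups of arrays separated more often than the test made calls. In 27 genes (36.0%) all 3 mutant arrays lay below all 3 control arrays, where 24.5% of all genes did so. In 5 genes all mutant arrays lay above all control arrays, and 18.3% of all genes did so. Of the 62 genes not called, 44 had a 95% interval of the change within 0.5 log2 units of 0, which is a 1.41-fold change, so for these a larger change lay outside the interval. Whole animals were measured, so fewer cells of a type and less RNA per cell cannot be told apart.

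The median change was negative over the subunits and positive over the duplicates. Of the 53 subunits, 9 were lower and 0 higher, with a median change of -0.13, and 15 (28.3%) had an unadjusted p under 0.05, where 38.4% of all genes did. The sign was negative for 40 subunits, and for 6531 of all 11981 genes. In 24 of the subunits (45.3%) the mutant arrays all lay below the controls, where 24.5% of all genes did so. Among the 21 duplicates 3 were lower and 1 was higher, with a median change of 0.12. Whether subunits and duplicates differ was not tested.

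**Figure D1:**
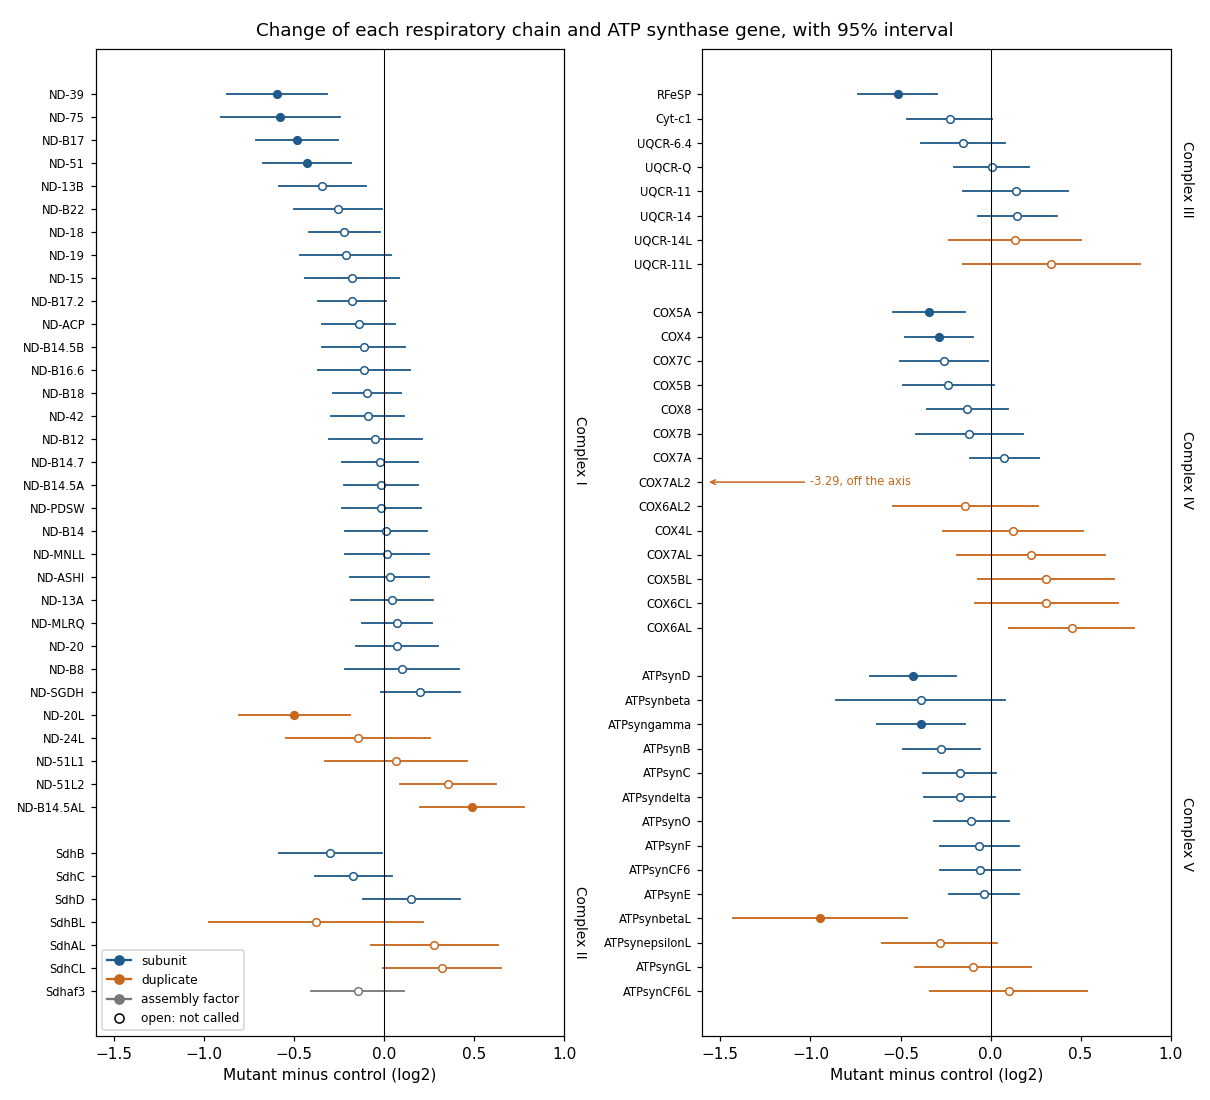
Change of each of the 75 genes, mutant minus control on the log2 scale (x axis), grouped by complex, with 95% intervals as lines. Filled points passed the test (adjusted p under 0.05, limma) and open points did not, with subunits in blue, duplicates in orange and the assembly factor in grey. COX7AL2, whose mutant values lie among those of the array's control probe sets, is off the axis at a fitted -3.29 and marked by an arrow, and most other points lie within 0.5 of 0.

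In complex I, 5 of 32 genes (15.6%) were lower in the mutant and 1 (3.1%) was higher, where 13.4% and 11.3% of all genes were. The median change was -0.09. Of the 27 subunits 4 were lower and 0 higher, and 3 of these 4 belong to the matrix arm, where NADH is oxidised. ND-39, whose human ortholog NDUFA9 sits in the matrix arm where it meets the membrane, had the lowest change of the complex. Its probe set read 10.84, 10.72 and 11.04 in the mutant and 11.36, 11.38 and 11.64 in the control. All mutant arrays lay below all controls, and ND-39 fell by 0.59 ± 0.12 (adjusted p = 0.0096, limma), a level 1.51-fold lower. ND-39 remained called with any 1 array left out.

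ND-75 and ND-51 encode core subunits at the NADH-oxidising tip of the matrix arm. The larger, ND-75, carries iron-sulfur clusters, and ND-51 binds the flavin that takes electrons from NADH. ND-75 read 8.78, 8.82 and 9.11 in the mutant and 9.21, 9.52 and 9.69 in the control. The groups did not overlap, and the gene fell by 0.57 ± 0.14 (adjusted p = 0.0251, limma). ND-51 read 10.17, 10.32 and 10.50 in the mutant and 10.81, 10.75 and 10.70 in the control. It fell by 0.43 ± 0.11 (adjusted p = 0.0245, limma), again with no overlap of the arrays. Both calls rest on several arrays. The ND-75 call was lost without mutant array 1 (adjusted p = 0.0843), mutant array 2 (0.0863), control array 2 (0.0608) or control array 3 (0.0821). The ND-51 call was lost without mutant array 1 (0.0721), mutant array 2 (0.0799), control array 1 (0.0789) or control array 2 (0.0534).

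The other matrix arm subunits did not pass the test. ND-13B had the lowest change among them at -0.34 ± 0.11 (adjusted p = 0.0569, limma), with a 95% interval of -0.58 to -0.10. Without mutant array 1 it fell by 0.43 and was called (adjusted p = 0.031). ND-20, a core subunit on the electron path to ubiquinone, read 11.15, 11.30 and 11.25 in the mutant and 11.18, 11.02 and 11.28 in the control. Its groups overlapped and its change was 0.07 ± 0.10, with an interval of -0.16 to 0.30. Over the 11 matrix arm subunits the median change was -0.18.

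Over the 16 subunits assigned to the membrane arm or to no arm, 1 was lower and the median change was -0.09. The gene that passed was ND-B17, an accessory subunit. It read 10.34, 10.27 and 10.33 in the mutant and 10.78, 10.66 and 10.94 in the control. ND-B17 fell by 0.48 ± 0.10 (adjusted p = 0.0104, limma), with no overlap, and its other probe set fell by 0.66 ± 0.11 (adjusted p = 0.003, limma). The call held with any 1 array left out. ND-MLRQ and ND-B22 were the brightest not called among the subunits that were grouped with complex I by their symbol alone. ND-MLRQ read 13.59, 13.60 and 13.50 in the mutant and 13.53, 13.47 and 13.47 in the control, a change of 0.07 ± 0.08 with an interval of -0.12 to 0.26. ND-B22 differed by -0.25 ± 0.11 (adjusted p = 0.144, limma), with an interval of -0.50 to -0.01.

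ND-ACP, the mitochondrial acyl carrier protein and a subunit of complex I, depended on the probe set. Its brightest probe set differed by -0.14 ± 0.09 (adjusted p = 0.343, limma). The other 2 were called and fell by 0.36 (adjusted p = 0.046) and 0.38 (adjusted p = 0.026). ND-SGDH had the highest change of the complex I subunits at 0.20 ± 0.10 (adjusted p = 0.202, limma), and its mutant arrays all lay above the controls by a small margin. ND-B8 lay on all 6 arrays, and ND-B12 on 2 of the 3 mutant arrays, in the range of the Drosophila control probe sets of the array, where changes are compressed. The limit of that range was 6.36 to 6.75 on the mutant arrays and 5.93 to 5.96 on the controls. ND-B12 itself read 6.44 to 6.71 in the mutant and 6.44 to 6.70 in the control.

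Complex II, succinate dehydrogenase, had 0 of 7 genes called in limma and a median change of -0.15, and 1 gene had an unadjusted p under 0.05. That gene was SdhB, the iron-sulfur subunit. SdhB read 9.69, 9.52 and 9.70 in the mutant and 9.77, 9.85 and 10.18 in the control. The mutant arrays lay below the controls and the change was -0.30 ± 0.12, with an interval of -0.58 to -0.01 and an adjusted p of 0.148 (limma). SdhC and SdhD, which anchor the enzyme in the membrane, differed in sign. The SdhC change was -0.17 ± 0.09 with an interval of -0.38 to 0.05, and the SdhD change was 0.15 ± 0.12 with an interval of -0.12 to 0.42. Sdhaf3, an assembly factor of the complex, differed by -0.15 ± 0.11 with an interval of -0.40 to 0.11.

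In complex III, 1 of 8 genes was lower (12.5%), where 13.4% of all genes were, and the median change was 0.07. These 8 include 2 duplicates, and over the 6 subunits alone the median change was -0.07. RFeSP encodes the Rieske iron-sulfur protein, which takes electrons from ubiquinol. It read 9.60, 9.53 and 9.76 in the mutant and 10.11, 10.12 and 10.21 in the control. The arrays did not overlap, the spread within each genotype was small, and RFeSP fell by 0.52 ± 0.10 (adjusted p = 0.00635, limma), to a level 1.43-fold lower. This call held with any 1 array left out. A dim RFeSP probe set with a mean of 4.52 differed by 0.27 ± 0.12 (adjusted p = 0.176, limma), and the mean of both differed by -0.12 (adjusted p = 0.357).

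Cyt-c1, which passes electrons on to cytochrome c, read 10.83, 11.02 and 11.04 in the mutant and 11.32, 11.14 and 11.11 in the control. The change was -0.23 ± 0.10 with an interval of -0.46 to 0.01 and an adjusted p of 0.178 (limma). UQCR-6.4 and UQCR-14, the brightest subunits of complex III, differed by -0.15 ± 0.10 and 0.15 ± 0.10. UQCR-Q differed by 0.01 ± 0.09, with an interval of -0.20 to 0.21. UQCR-11 lay in the low range on all 6 arrays.

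Complex IV, cytochrome c oxidase, had 3 of 14 genes lower (21.4%), where 13.4% of all genes were, and a median change of -0.12. Among its 7 subunits 2 were lower, and the median change was -0.23. COX5A and COX4 encode nuclear subunits that surround the catalytic core. COX5A read 11.78, 11.92 and 11.93 in the mutant and 12.22, 12.22 and 12.21 in the control. COX4 read 12.10, 12.08 and 12.03 in the mutant and 12.36, 12.33 and 12.39 in the control. In both genes the mutant arrays lay below tightly grouped controls. COX5A fell by 0.34 ± 0.09 (adjusted p = 0.0272, limma) and COX4 by 0.29 ± 0.08 (adjusted p = 0.0419). Neither call was kept with any 1 array left out, mutant or control, with adjusted p of 0.0547 to 0.0804 for COX5A and 0.0747 to 0.126 for COX4. The COX4 call was also lost under quantile normalisation (adjusted p = 0.0707).

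The other 5 complex IV subunits did not pass. COX7C had the lowest change at -0.26 ± 0.11 (adjusted p = 0.139, limma), with no overlap of the arrays. COX5B differed by -0.23 ± 0.11, COX8 by -0.13 ± 0.10 and COX7B by -0.12 ± 0.13. COX7A, the brightest, read 12.81, 12.76 and 12.69 in the mutant and 12.68, 12.69 and 12.66 in the control. Its change of 0.08 ± 0.08 had an interval of -0.12 to 0.27, and the mutant values lay just above the control values.

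The change with the greatest size among the 75 genes was in COX7AL2, a duplicate of the complex IV subunit COX7A. COX7AL2 read 6.12, 5.95 and 5.96 in the mutant and 9.39, 8.93 and 9.58 in the control. The gap between the groups far exceeded the spread within either. All 3 mutant values lay within the lower 95% of 100 Drosophila control probe sets, a limit that was set after seeing the data. The limit was 6.36 to 6.75 on the mutant arrays and 5.93 to 5.96 on the controls. Against that limit COX7AL2 was at least 6.47-fold lower in the mutant, or 2.69 lower on the log2 scale, which is a bound and not a measured change (adjusted p = 3.51e-06 in the limma fit of the values as given). By its name the probe set can match more than 1 transcript, while the annotation lists COX7AL2 alone, and any share of other transcripts in its signal was not tested. The gene lies on 2L, and Sox14 on 2R, so a linked strain difference on chromosome 2 and an effect of the Sox14 allele cannot be told apart. COX7AL2 was called with any 1 array left out.

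In complex V, 3 of 14 genes were lower (21.4%), where 13.4% of all genes were. The sign was negative for 13 of the 14 genes and the median change was -0.17. All 10 subunits had a negative change, 2 of them passed the test, and in 6 the mutant arrays all lay below the controls. Over all genes 6531 of 11981 changes were negative, and in 24.5% the mutant arrays all lay below the controls. ATPsynD encodes a subunit of the peripheral stalk, which holds the catalytic head still. It read 11.78, 11.87 and 11.86 in the mutant and 12.26, 12.11 and 12.43 in the control. ATPsynD fell by 0.43 ± 0.10 (adjusted p = 0.0219, limma), with no overlap. It was called without control array 2 (adjusted p = 0.0148), and with any other array left out the adjusted p was 0.0544 to 0.0678.

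ATPsyngamma encodes the central shaft that turns inside the catalytic head. Its brightest probe set read 11.57, 11.90 and 11.83 in the mutant and 12.20, 12.11 and 12.16 in the control. The lowest value was that of mutant array 1, and the gene fell by 0.39 ± 0.11 (adjusted p = 0.0369, limma). Without that array the change was -0.29 (adjusted p = 0.0929). The call was kept without mutant array 2 (adjusted p = 0.0476) and lost without mutant array 3 (0.0671), control array 1 (0.105), control array 2 (0.0599) or control array 3 (0.0872). The other probe set differed by -0.06 ± 0.15 (adjusted p = 0.850, limma).

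ATPsynbeta, the catalytic subunit, had a similar change that 1 array carried. It read 12.11, 12.95 and 12.90 in the mutant and 13.11, 12.96 and 13.06 in the control. Mutant array 1 lay far below the rest, and the other 2 mutant arrays lay just below the lowest control. The change was -0.39 ± 0.20 with an interval of -0.86 to 0.08 (adjusted p = 0.248, limma), and -0.12 without mutant array 1. A second ATPsynbeta probe set differed by 0.16 (adjusted p = 0.384).

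Among the other 7 subunits of complex V, ATPsynB of the peripheral stalk had the lowest change at -0.27 ± 0.09 (adjusted p = 0.0823, limma). ATPsynC, whose protein forms the membrane ring that protons turn, differed by -0.17 ± 0.09, and ATPsyndelta by -0.17 ± 0.09. ATPsynO, ATPsynF, ATPsynCF6 and ATPsynE differed by -0.11 to -0.03. ATPsynF, the brightest subunit, had an interval of -0.28 to 0.16. So 8 of the 10 subunits of this complex did not pass the test, though every change had the same sign.

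Subunits outside the symbol rule were measured for 3 of 5 listed genes, and 2 of them fell. The blw gene encodes the ATP synthase alpha subunit, the partner of beta in the catalytic head. It read 12.28, 12.40 and 12.46 in the mutant and 12.70, 12.88 and 12.84 in the control. The groups did not overlap and blw fell by 0.42 ± 0.10 (adjusted p = 0.0153, limma), with adjusted p of 0.0505 without mutant array 1 and 0.0525 without mutant array 2. The ox gene, for a small subunit of complex III, read 10.91, 10.71 and 10.55 in the mutant and 11.55, 11.62 and 11.52 in the control. It fell by 0.84 ± 0.11 (adjusted p = 0.000909, limma), further than any subunit among the 75 genes. Both genes lie on 2R, as Sox14 does. The third, sun, which encodes the epsilon subunit, differed by 0.14 ± 0.13.

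**Figure D2:**
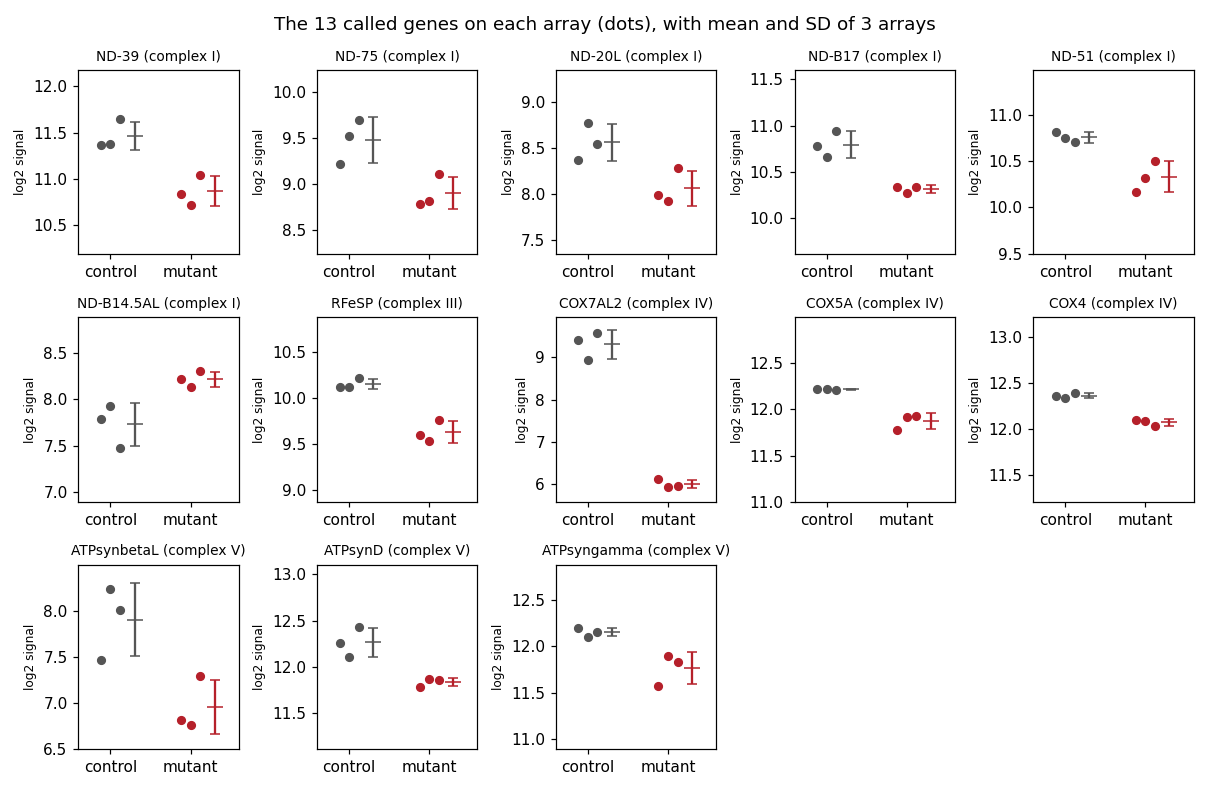
Level of each of the 13 called genes on each array (log2 RMA signal, y axis, 1 panel per gene), with points for the 3 mutant and 3 control arrays and bars for mean ± SD. In every panel the genotypes do not overlap, and ND-B14.5AL is the panel in which the mutant is higher.

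Of the 13 calls, 4 held with each of the 6 arrays left out in turn: COX7AL2, ND-39, ND-B17 and RFeSP. Without mutant array 1, 5 of the 75 genes were lower and 0 higher, where 10.2% and 8.9% of all genes were. The 5 were those 4 genes and ND-13B.

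Among the duplicates, those called apart from COX7AL2 were ATPsynbetaL, ND-20L and ND-B14.5AL. ATPsynbetaL, a duplicate of the catalytic beta subunit, read 6.81, 6.77 and 7.29 in the mutant and 7.47, 8.23 and 8.01 in the control. It fell by 0.95 ± 0.21 (adjusted p = 0.0148, limma), to a level 1.93-fold lower. The arrays did not overlap, but the call was lost without mutant array 1 (adjusted p = 0.0557), mutant array 2 (0.0548) or control array 3 (0.0626). ND-20L read 7.99, 7.93 and 8.28 in the mutant and 8.37, 8.77 and 8.55 in the control. It fell by 0.50 ± 0.14 (adjusted p = 0.0349, limma), and the call was lost without mutant array 1 (0.106), mutant array 2 (0.124), control array 2 (0.0898) or control array 3 (0.0877).

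The only gene called higher was ND-B14.5AL. It read 8.22, 8.14 and 8.30 in the mutant and 7.79, 7.93 and 7.48 in the control. All mutant arrays lay above the controls, and ND-B14.5AL rose by 0.49 ± 0.13 (adjusted p = 0.0284, limma). Without control array 2 it was also called (adjusted p = 0.016), and with any other array left out the adjusted p was 0.0573 to 0.0887. Its parent gene ND-B14.5A differed by -0.02 ± 0.09.

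The 17 duplicates not called had changes from -0.38 to 0.45. COX6AL had the highest, 0.45 ± 0.15 (adjusted p = 0.0753, limma), and ND-51L2 followed at 0.36 ± 0.12 (adjusted p = 0.0696), both with no overlap between the genotypes. UQCR-11L, SdhCL, COX6CL, COX5BL, SdhAL and COX7AL differed by 0.34 to 0.22. UQCR-14L, COX4L, ATPsynCF6L and ND-51L1 differed by 0.13 to 0.07. ATPsynGL, COX6AL2, ND-24L, ATPsynepsilonL and SdhBL differed by -0.10 to -0.38, and the SdhBL interval of -0.97 to 0.22 was the widest of these.

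Of the 21 duplicates, 14 had a parent gene measured under the matching symbol, and a call in a duplicate was not matched by one in its parent. ATPsynepsilonL is not among the 14, and sun, which encodes the epsilon subunit, differed by 0.14 without passing the test. COX7AL2 was at least 6.47-fold lower where COX7A differed by 0.08 on the log2 scale, and ND-20L fell by 0.50 where ND-20 differed by 0.07. ATPsynbetaL fell by 0.95 where ATPsynbeta differed by -0.39 without passing the test. Conversely ND-51 and COX4 fell, while ND-51L1, ND-51L2 and COX4L differed by 0.07, 0.36 and 0.12 without passing it.

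The duplicates varied together from array to array, and control array 2 stood out. The median SD over the 3 control arrays was 0.33 for the duplicates and 0.077 for the subunits. In 19 of the 21 duplicates control array 2 was the highest control, which it was in 6 of the 53 subunits and in 28.1% of all genes. Mutant array 3 was the highest mutant array in 16 duplicates, in 10 subunits and in 34.1% of all genes. Median deviations of the duplicates from the control mean were 0.16, -0.04 and 0.22 on the mutant arrays and -0.25, 0.33 and -0.09 on the controls. For the subunits they were -0.04, -0.12 and -0.18 on the mutant arrays and 0.00, -0.06 and 0.03 on the controls.

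Testis markers moved over the arrays with the duplicates. Of 36 listed genes 30 were measured, with 3 lower, 2 higher and a median change of 0.05. Their median deviations were -0.14, -0.02 and 0.25 on the mutant arrays and -0.23, 0.37 and -0.08 on the controls. Control array 2 was the highest control in 28 of the 30. The log2 of their summed signal ranged from 14.701 to 15.085 in the mutant and from 14.422 to 15.143 in the control, and aly, twe and comr lay in the low range on all 6 arrays. Of the 3 called lower, tomb and can lay in that range on all mutant arrays. Without control array 2, 7 duplicates joined ND-B14.5AL among the genes called higher: COX5BL, COX6AL, COX6CL, COX7AL, SdhAL, SdhCL and UQCR-11L, with changes of 0.44 to 0.59 (adjusted p = 0.0154 to 0.0387, limma). The resulting 8 of 75 genes lie near the 11.2% of all genes called higher in that fit. The part of testis content in the duplicates' values was not tested.

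**Figure D3:**
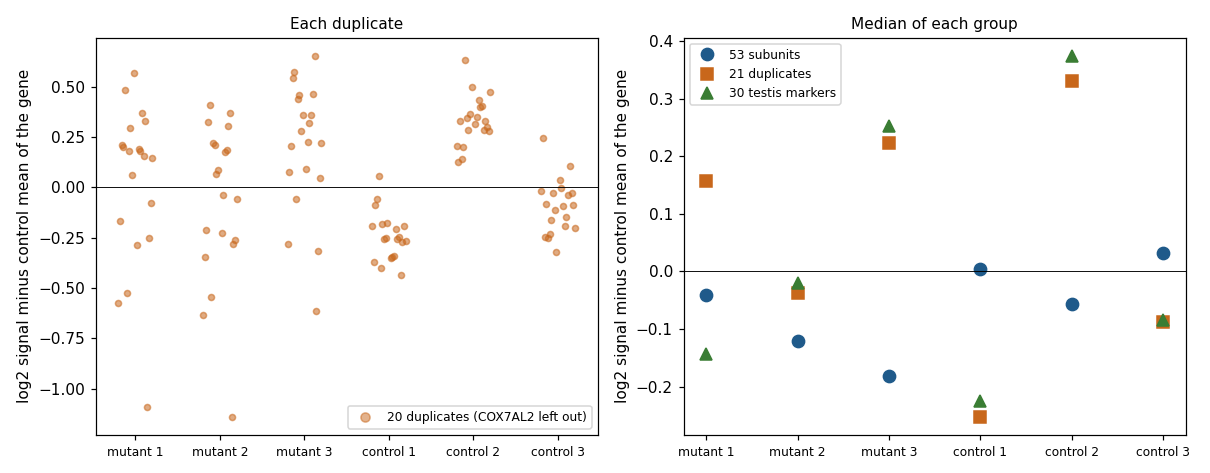
Left, deviation of 20 duplicates from their control mean (log2, y axis) on each of the 6 arrays, without COX7AL2; right, the median deviation of the 53 subunits, 21 duplicates and 30 testis markers on each array. Duplicates and testis markers are both highest among controls on control array 2 and highest among mutants on mutant array 3, and subunits stay near 0.

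Of the other tissue marker lists, those of muscle and midgut had median changes above 1, and the rest had medians of -0.19 to 0.12. Of 12 measured muscle genes 11 rose and 0 fell, with a median change of 1.45, and their summed signal as log2 was 14.290 to 14.495 in the mutant and 13.194 to 13.231 in the control. Of 12 midgut genes 10 rose and 0 fell, with a median of 1.32 and sums of 16.61 to 16.73 against 15.40 to 15.47. Fat body and hemolymph protein genes gave 3 lower and 2 higher of 9, with a median of -0.19. Neuronal genes gave 1 lower and 2 higher of 11, with a median of 0.12 and sums of 10.75 to 10.99 against 10.66 to 10.74. With VAChT and futsch, in the low range on all mutant arrays, set to 0, the neuronal median was 0. Salivary gland genes gave 1 lower and 1 higher of 9, with a median of -0.13. With Mlc2 and Mal-A1, in the low range on all control arrays, set to their bound, the muscle median was 1.37 and the midgut median 1.32. In the salivary gland list mutant array 2 read a sum of 14.37, against 16.03 to 16.45 on the other arrays. The part of tissue makeup in the respiratory chain values was not tested.

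By chromosome, 5 of the 29 genes on chromosome 2 were lower and 0 higher, with a median change of -0.10. Elsewhere 7 of the 46 were lower and 1 higher, with a median of -0.11. By the same test 13.4% of all genes were lower and 11.3% higher. The 5 lower genes of chromosome 2 are among the 16 on 2L: COX7AL2, RFeSP, ND-B17, ND-51 and COX4. None of the 13 on 2R, the arm of Sox14, was called in limma, and 4 of those 13 (30.8%) had an unadjusted p under 0.05, where 38.4% of all genes did. The linkage named for COX7AL2 applies to every gene on chromosome 2.

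Other mitochondrial genes were described by list. Over the 6 functional lists that follow and the subunits outside the symbol rule, 88 genes were measured. Among them 14 were lower (15.9%) and 7 higher (7.95%), where 13.4% and 11.3% of all genes were. The median change was -0.07, against -0.03 over all genes. The same values over all genes stand beside each list below. Of these 21 calls, 10 held with any 1 array left out: ox, Fdx2, Mpc1, aralar1, Dic1, bsf, Taz, Chchd2, Letm1 and Roe1.

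In the list of cardiolipin and membrane organisation genes 4 were lower and 2 higher of 12, with a median change of -0.15. Taz encodes tafazzin, which remodels cardiolipin, the lipid that respiratory complexes bind. Taz read 8.13, 8.41 and 8.52 in the mutant and 11.87, 11.86 and 11.84 in the control. The genotypes lay far apart and Taz fell by 3.50 ± 0.11 (adjusted p = 4.58e-07, limma), to a level 11.4-fold lower. Letm1, for an ion exchanger of the inner membrane, fell by 1.18 ± 0.11 (adjusted p = 0.000104). Chchd2, for a small mitochondrial protein tied to complex IV and cristae, fell by 0.83 ± 0.09 (adjusted p = 0.0004). Taz and Letm1 lie on 2R and Chchd2 on the X.

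Assembly factors and iron-sulfur cluster genes gave 1 lower and 2 higher of 16, with a median of 0.00. Fdx2, a mitochondrial ferredoxin, read 9.54, 9.43 and 9.31 in the mutant and 11.08, 11.13 and 11.11 in the control. It fell by 1.68 ± 0.09 (adjusted p = 6.70e-06, limma), to a level 3.20-fold lower, with no overlap. Fdx1, the other ferredoxin, rose by 0.51 ± 0.11 (adjusted p = 0.0147), and IscU, the scaffold for iron-sulfur clusters, rose by 0.35 ± 0.09 (adjusted p = 0.0318). The Fdx1 call was lost without mutant array 1 (adjusted p = 0.0518), mutant array 2 (0.0624) or control array 3 (0.052). The IscU call was lost with any array but mutant array 3 left out (0.0691 to 0.111).

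Genes of the citrate cycle and pyruvate entry gave 1 lower and 2 higher of 14, with a median of 0.01. Mpc1, a subunit of the mitochondrial pyruvate carrier, read 10.83, 10.89 and 10.80 in the mutant and 9.80, 9.95 and 9.75 in the control, and rose by 1.01 ± 0.09 (adjusted p = 0.000121, limma). ScsbetaG and ScsbetaA encode alternative beta subunits of succinyl-CoA synthetase. They went opposite ways: ScsbetaG fell by 0.53 ± 0.13 (adjusted p = 0.0205) and ScsbetaA rose by 0.37 ± 0.10 (adjusted p = 0.0298). The ScsbetaG call was lost without mutant array 2 (adjusted p = 0.0597), mutant array 3 (0.0664), control array 1 (0.0645) or control array 2 (0.054). The ScsbetaA call was lost without mutant array 2 (0.12), mutant array 3 (0.0938), control array 1 (0.0842) or control array 3 (0.0788).

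Of 13 exchange proteins 1 was lower and 1 higher, with a median of -0.03. The aspartate and glutamate carrier aralar1 read 9.43, 9.58 and 9.79 in the mutant and 10.38, 10.42 and 10.62 in the control, and fell by 0.88 ± 0.12 (adjusted p = 0.00111, limma). The dicarboxylate carrier Dic1 read 10.00, 10.09 and 9.99 in the mutant and 9.06, 9.10 and 9.30 in the control, and rose by 0.87 ± 0.10 (adjusted p = 0.000389). Neither pair of groups overlapped. The ADP/ATP carrier sesB, which exchanges the product of complex V, differed by -0.03 ± 0.10.

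Of 12 genes for mitochondrial DNA and its expression 2 were lower and 0 higher, with a median of -0.08, or -0.04 with PolrMT and mtDNA-helicase, both in the low range on all mutant arrays, set to 0. The mitochondrial RNA-binding protein bsf fell by 0.48 ± 0.10 (adjusted p = 0.00896, limma). PolrMT, the mitochondrial RNA polymerase, is the other gene called (adjusted p = 0.0482), but its 3 mutant arrays lay in the low range, whose mean limit of 6.61 there exceeds its control mean of 6.43, so no size is given. The PolrMT call was kept without control array 1 and lost with any other array left out (0.069 to 0.14). Of 18 import genes 3 were lower and 0 higher, with a median of -0.12. Roe1, a GrpE-like partner of mitochondrial Hsp70 encoded on 2R, fell by 1.06 ± 0.12 (adjusted p = 0.000361). The chaperonin gene Hsp60A fell by 0.64 ± 0.15 (adjusted p = 0.0178; 0.0544 without control array 3). Tom40, the channel of the outer membrane, fell by 0.40 ± 0.09 (adjusted p = 0.0131; 0.0531 without mutant array 2).

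**Figure D4:**
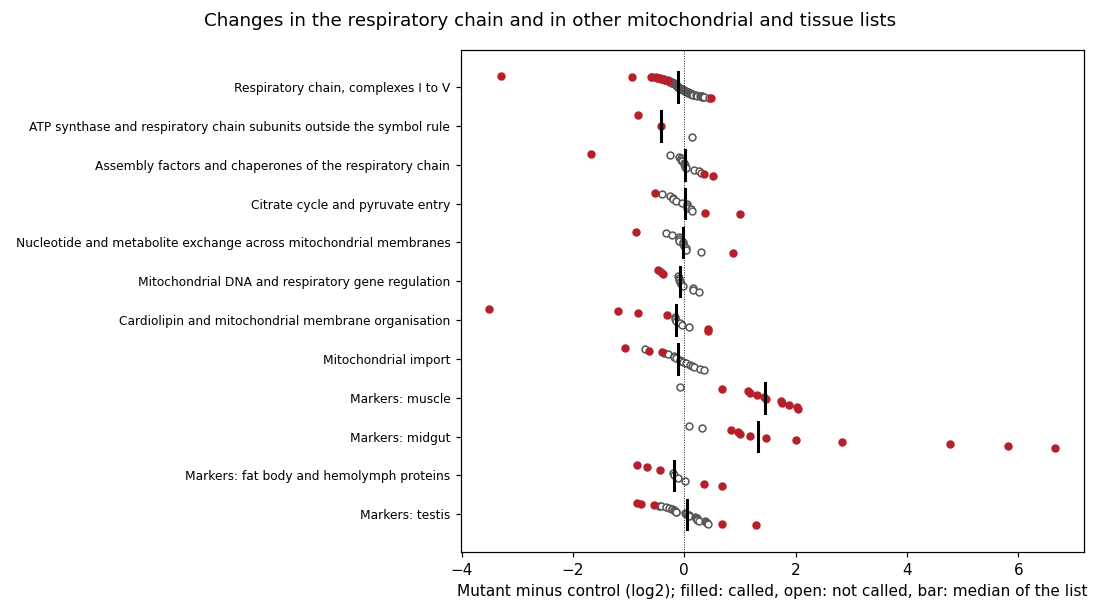
Change of each of the 75 respiratory chain and ATP synthase genes, mutant minus control on the log2 scale. Below them are the measured genes of the other mitochondrial lists and of the muscle, midgut, fat body and testis marker lists. The neuronal and salivary gland lists are not drawn. Filled points passed the test (adjusted p under 0.05, limma) and the bar is the median of a list. The respiratory chain genes cluster near a median of -0.11, and the muscle and midgut lists have medians of 1.45 and 1.32.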

How the data were processed

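Biotin-labelled copies of whole-prepupa total RNA were read on Affymetrix Drosophila Genome arrays. Per the submitters' processing notes, the deposited log2 values came from RMA, run in version 1.1 of the Affymetrix Expression Console. RMA subtracts background, aligns the arrays' distributions and combines the probes of a probe set, which compresses changes of dim transcripts. The genome build was not given in the sources used.

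After 183 Affymetrix control probe sets were left out, 18769 were fitted with limma 3.58.1 (lmFit, eBayes) under R 4.3.3. Tests were 2-sided and adjusted by Benjamini-Hochberg over the 18769, of which 13646 were annotated to 1 gene. Standard errors and 95% intervals are those of limma, and group levels are compared over 3 arrays each, whose number limits the precision. All 75 genes matched the RefSeq annotation, used for chromosomes. The 75 genes and all lists were chosen with earlier results of these data known, so no p is given over a list.

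Named were all called genes, the 2 brightest uncalled genes and the extremes of each complex, the duplicates, and up to 3 called genes of each other list. Others were named after their values were seen: ND-20, ND-ACP, ND-SGDH, ND-B8, ND-B12, ND-B14.5A, SdhB, UQCR-Q, UQCR-11, COX5B, COX8, sun, sesB and several ATP synthase subunits. Each array was left out in turn. Other alternatives were quantile normalisation, median centring, array weights, a trended robust variance, a replicate block, probe set means, the dimmest 40% removed, an adjusted p under 0.01, subunits only and chromosome 2 left out. Leaving out probe sets of a shared type was added after seeing the data. The fit was tested on simulated data.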

Additional observations from a re-analysis of the deposited data

How the results depend on the processing

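The count of 12 lower genes became 3 at an adjusted p under 0.01, 7 of 46 without chromosome 2, and 5 to 8 with 1 array left out. The count of 1 higher gene became 0 at 0.01 and with subunits only, 3 with array weights, and 0 to 8 with 1 array left out. At 0.01 the lower counts were 1 in complex I (from 5), 1 in IV (from 3), 0 in V (from 3) and 8 in the other lists (from 14), with 0 higher in complex I (from 1) and 2 in the other lists (from 7). Array weights gave 2 higher in complex I and 1 in IV, and the mean of probe sets gave 0 lower in complex III. With 1 array left out, lower counts were 2 to 5 in complex I, 1 to 1 in III, 1 to 1 in IV, 0 to 2 in V and 9 to 14 in the other lists. Higher counts were then 0 to 1 in I, 0 to 2 in II, 0 to 1 in III, 0 to 4 in IV and 3 to 6 in the other lists. The median change of -0.11 ranged from -0.13 to -0.06. Median centring moved the median of all genes from -0.03 to -0.07 and that of the 75 genes to -0.15, with 14 lower. Of 218 alternative counts and medians, 162 stayed equal or close to the main value, 49 counts were smaller and 7 were larger. Close was set broadly: the fall from 12 lower genes to 8 with the replicate block is among the 162, as is the median of -0.06. Counts of 0 that stayed 0 are among the 162, and a count has no sign to reverse. Why the counts moved was not tested.

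With the replicate number as a block, 8 genes were lower and 0 higher, with 1 lower in complex IV and 0 higher in complex I. Same-numbered arrays correlated at 0.17, -0.10 and -0.02 in their deviations. Arrays with different numbers were not compared, so these values cannot show whether a number stands for a shared culture or batch.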

Other observations

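COX5B and its duplicate COX5BL lie on 2L with 1 annotated gene between them, and their values differed in sign without passing the test. COX5B, a nuclear subunit of complex IV, read 11.88, 11.71 and 11.65 in the mutant and 11.93, 11.87 and 12.15 in the control, a change of -0.23 ± 0.11 (adjusted p = 0.195, limma). COX5BL read 9.16, 8.97 and 9.15 in the mutant and 8.58, 9.19 and 8.59 in the control, a change of 0.31 ± 0.16 (adjusted p = 0.259, limma). Control array 2 gave the highest control value of COX5BL and the lowest of COX5B.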
